A study of Mus musculus with 21 samples.

Results

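Mouse embryonic stem cells labelled Trim71-/- and carrying an empty plasmid (Trim71KO_empty, 3 libraries) were compared with cells without that edit that had received a plasmid for a mutant T6B peptide (T6B_MUT, 3 libraries). These 6 libraries were taken by their labels from the 21 of the series and belong to its Experiment 2. Both groups derive from a 129S6/SvEvTac line that holds the yGlob reporter GFP_5xT71BS and stably expresses FLAG-Cas9 linked to a blasticidin marker, and both were grown on gelatin in medium with serum and LIF. The T6B_MUT cells received pCIP FH-T6B_MUT::mCherry. T6B is a fragment of the silencing protein TNRC6B that binds Argonaute proteins, and its mutant serves as the inactive form. Experiment 2 has no group with an empty plasmid and intact Trim71, so genotype and plasmid differ together here, and their contributions cannot be told apart. The labels do not say whether the edited line was 1 clone. The remaining groups of that experiment are unedited cells with pCIP FH-T6B_WT::mCherry (T6B_WT) and Ago2-/- cells with empty plasmid (Ago2KO_empty). Experiment 1 holds cells called untransfected here, since their labels name no plasmid beyond the reporter and the stable Cas9 construct. They carry no edit (W), Trim71-/- (Trim71KO) or Ago2-/- (Ago2KO). The Ago2KO libraries enter the fits but are not compared here. All these groups had 3 biological replicates, but the labels do not describe separate cultures, so p-values measure the spread between these samples.

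TRIM71 is an RNA-binding protein of early embryos and stem cells. Its NHL domain binds hairpins in target mRNAs, whose translation or stability it lowers, and its own mRNA is a classic target of the let-7 microRNAs. Stem cells in serum and LIF move between a naive state, held by LIF and STAT3 signalling and factors such as KLF4 and NANOG, and a formative state that precedes differentiation. Nodal, BMP, FGF and Wnt signals act on these transitions and on the exit into embryonic and extraembryonic lineages.

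The Trim71KO_empty libraries held 33910145 to 39431991 counts and the T6B_MUT libraries 40578321 to 57872324. Replicates of Trim71KO_empty differed more among themselves, with a chi-square per degree of freedom of 29.7 to 43.2 against 3.74 to 10.4 in T6B_MUT. Its replicate 3 held 5396 CPM (counts scaled to library size by TMM) of the ribosomal RNA row CT010467.1 against 50.9 to 51 in the other 2 replicates. On the first principal component of the 12 libraries of Experiment 2, which held 43.3% of the variance, the 3 Trim71KO_empty libraries stood apart at 25.4 to 29.4 and the others at −19 to 1.83. The 8 defining stem cell markers summed to 3914 to 4052 CPM in T6B_MUT and 4464 to 4691 CPM in Trim71KO_empty.

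The edited gene was measured first. Trim71 stood at 482, 493 and 503 CPM in the T6B_MUT replicates and at 405, 409 and 393 CPM in the Trim71KO_empty replicates. Every edited library lay below every control library, as CPM did without overlap in one direction or the other for 45.5% of all genes tested, and the mRNA was still present in all 6 (log2 fold change −0.29, SE 0.08, edgeR quasi-likelihood adjusted p 0.0117). A gene count does not separate reads at the edited site, so this level does not check the edit. Ccr4, a chemokine receptor gene just beyond the 3′ end of Trim71 on the same strand, stood at 0.294, 0.36 and 0.381 CPM in T6B_MUT and 36.9, 38.5 and 32 CPM in Trim71KO_empty. Its groups did not overlap (log2 fold change 6.68, SE 0.15, edgeR adjusted p 3.06e-16). Its increase was the largest of any gene whose log2 CPM averaged at least 2 over the 12 libraries of Experiment 2. Ccr4 passed that level only through Trim71KO_empty, since it averaged 0.294 CPM in T6B_WT and 0.836 CPM in Ago2KO_empty. Ago2, which encodes an Argonaute protein that carries microRNAs, did not pass the test (log2 fold change −0.06, SE 0.38, edgeR adjusted p 0.93). Ago2 stood at 113, 143 and 112 CPM in T6B_MUT and 124, 115 and 114 CPM in Trim71KO_empty. Its SE is from a fit of all 12 libraries of Experiment 2, with Ago2KO_empty at 87.4, 167 and 45.6 CPM.

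1 gene bears on the plasmids themselves. Tnrc6b, whose protein T6B derives from, stood at 227, 245 and 217 CPM in T6B_MUT and 84.8, 74.8 and 67.6 CPM in Trim71KO_empty. The groups did not overlap (log2 fold change −1.60, SE 0.21, edgeR adjusted p 0.000515). The mean was 246 CPM in T6B_WT, 109.5 CPM in Ago2KO_empty, 49.6 CPM in W and 64.2 CPM in Trim71KO, so both groups with a T6B plasmid were highest. Between the experiments the change differed by −1.97 (edgeR adjusted p 3.21e-05). Whether reads of the plasmid were counted for Tnrc6b was not tested.

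Across 21505 genes, edgeR called 3104 (14.4%) higher in Trim71KO_empty and 2871 (13.4%) lower at an adjusted p under 0.05, together 27.8%. The 12696 genes averaging at least 2 on the log2 CPM scale, to which most genes named below belong, had 33.8% called, 16.2% higher and 17.6% lower. The median log2 fold change of all genes was 0.00, and the median SE was 0.12. At least a 2-fold change was reached by 682 genes called higher (3.17%) and 326 called lower (1.52%). By the same rule of call, 3165 genes were higher (14.7%) and 3636 lower (16.9%) in Trim71KO_empty against Ago2KO_empty, a comparison of edited lines that share the empty plasmid. It shares the Trim71KO_empty libraries with the comparison above, so its values are set beside the others without support drawn from them. The 3 libraries labelled Ago2KO_empty differed in Ago2 itself, at 87.4, 167 and 45.6 CPM, and are named here by their labels.

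**Figure D1:**
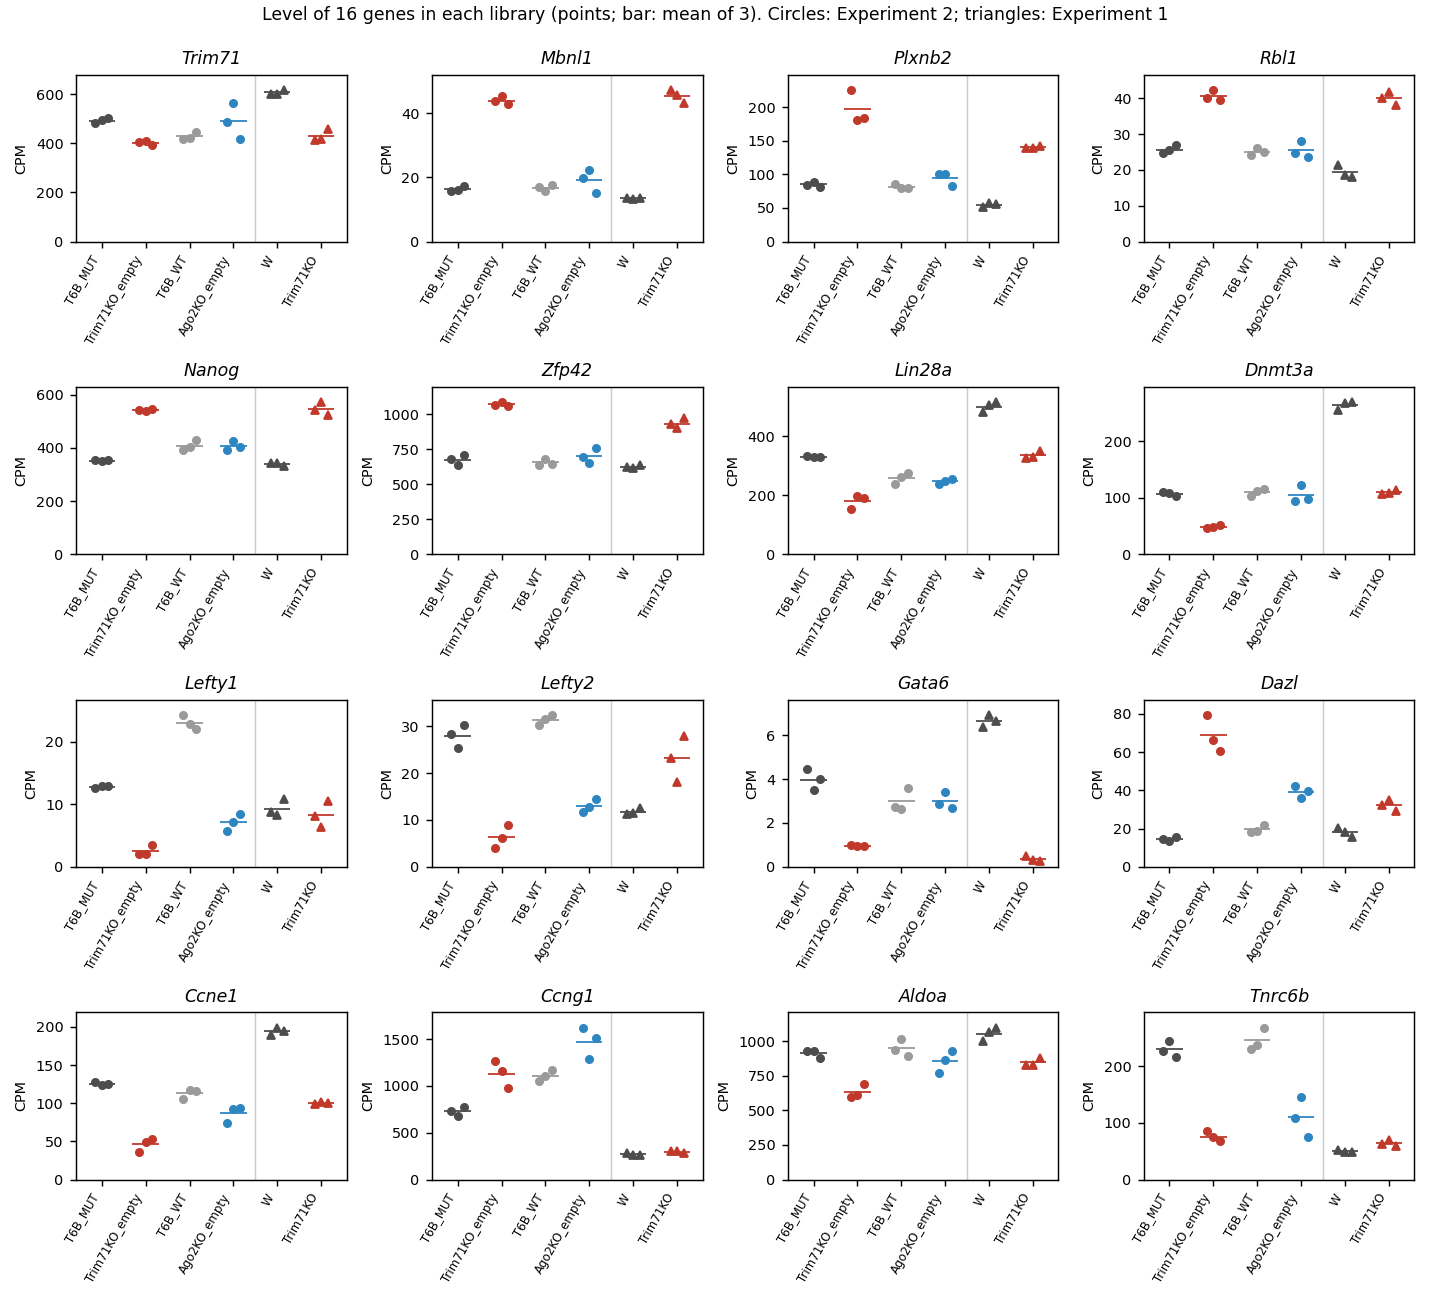
CPM (linear axis from 0) of 16 genes in each library of 4 groups of Experiment 2 (circles) and 2 groups of Experiment 1 (triangles), with 1 point per replicate and a bar at the mean of 3. In Experiment 2, Mbnl1, Plxnb2, Rbl1, Nanog, Zfp42 and Dazl were highest and Lefty1, Lefty2, Gata6, Dnmt3a, Lin28a, Ccne1 and Aldoa were lowest in Trim71KO_empty, and Ccng1 was lowest in T6B_MUT.

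The largest increases after Ccr4, at an average log2 CPM of 2 or above and without overlap between the groups, included several X-linked and germline genes. That average includes Trim71KO_empty, so a gene high mainly there can pass. Tm9sf5 averaged 19.6 CPM in Trim71KO_empty against 1.68 CPM in T6B_MUT, 1.45 CPM in T6B_WT and 4.39 CPM in Ago2KO_empty. Dazl, an RNA-binding protein of germ cells (chromosome 17, 50279395 to 50293636, minus strand, GRCm38), stood at 14.5, 13.7 and 15.8 CPM in T6B_MUT and 79.4, 66.5 and 60.4 CPM in Trim71KO_empty (log2 fold change 2.23, SE 0.10, edgeR adjusted p 8.60e-11). Scml2, a Polycomb protein of the germline on chromosome X, stood at 4.08, 3.98 and 3.85 CPM and 21.9, 22 and 18.9 CPM in the same order (log2 fold change 2.40, SE 0.11, edgeR adjusted p 2.48e-11). For both genes the lowest edited library was several times the highest control library. Tm9sf5 (log2 fold change 3.54), Rhox5, a homeobox gene of the reproductive cluster (2.35), Ezhip, an inhibitor of the Polycomb enzyme EZH2 (2.01), and Ube2dnl1 (1.94) are X-linked too. The others were the glycosyltransferase gene Mgat4c (2.56), the citrate transporter Slc13a5 (2.38), the carboxypeptidase Cpe (2.32), the sialyltransferase St8sia6 (2.07) and 6330410L21Rik (2.61), which lies antisense to Egf and is uncertain, because whether counting took account of strand is not given in the sources used here. The same limit holds for other named genes that overlap a gene on the opposite strand, among them Trim71, Rbl2, Stat3, Ccnd1 and Aldoa. The edgeR adjusted p of these 11 genes was 2.92e-09 or below, except for 1.64e-08 in Ube2dnl1 and 4.18e-08 in Mgat4c.

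The largest decreases by the same rule were led by the Nodal antagonists Lefty1 and Lefty2, which are described with their pathway. Tdrd12, a Tudor protein of the piRNA pathway, fell from 29.2, 27.8 and 28.5 CPM to 5.43, 7.94 and 8.21 CPM (log2 fold change −1.99, SE 0.11, edgeR adjusted p 7.93e-10). Ifitm1, an interferon-induced membrane protein also used as a marker of early germ cells, stood at 20, 19.6 and 18.9 CPM in T6B_MUT and 4.73, 4.82 and 6.64 CPM in Trim71KO_empty (log2 fold change −1.85, SE 0.15, edgeR adjusted p 2.74e-07). Neither gene's groups overlapped, which the rule required. The other called decreases were those of the growth factor gene Fgf15 (log2 fold change −1.81), the actin-binding calponin Cnn2 (−1.71), the metalloprotease Adam19 (−1.71), the phospholipase Pla2g1b (−1.69), the noncoding RNA Lncenc1 (−1.66), Glipr2 (−1.65), the guidance ligand Sema3e (−1.63) and the mitochondrial aldehyde dehydrogenase Aldh1b1 (−1.60). Against Ago2KO_empty, all 12 genes of this set were called lower as well, with log2 fold changes from −2.92 in Adam19 to −1.02 in Lefty2.

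The transfected comparison shared no library with that of untransfected cells, Trim71KO against W, where 32.6% of 21210 genes were called. Of the 2979 genes called higher here that were tested in both, 1649 (55.4%) were called higher there and 111 lower. Of 2853 called lower, 1448 (50.8%) were called lower there and 86 higher. Among genes with at least a 2-fold change the shares were 338 of 561 higher (60.2%) and 204 of 309 lower (66.0%). A test of the difference between the experiments was called for 2237 of 22258 genes (10.1%), 5.04% with a higher and 5.01% with a lower value in the transfected pair, and the values of that test are given below beside each group of genes it touches.

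Of the 6 published TRIM71 target mRNAs tested, 5 were called higher and 1 was not called, with a median log2 fold change of 0.59 against 0.00 over all genes tested. The list comes from published work on TRIM71 in mouse embryonic stem cells and was drawn up with earlier results of these data known, so its direction is not independent evidence. Mbnl1, a splicing regulator whose activity rises in differentiation (chromosome 3, 60472830 to 60629750), stood at 15.8, 16 and 17.4 CPM in T6B_MUT and 43.9, 45.3 and 42.9 CPM in Trim71KO_empty (log2 fold change 1.42, SE 0.10, edgeR adjusted p 1.06e-08). Plxnb2, a semaphorin receptor (chromosome 15, 89155549 to 89180788), stood at 84.9, 88.7 and 81.3 CPM and 226, 180.4 and 184 CPM (log2 fold change 1.21, SE 0.09, edgeR adjusted p 1.93e-08). In both, each edited library was far above the highest control library, while T6B_WT and Ago2KO_empty lay near T6B_MUT (means of 16.7 and 19.1 CPM for Mbnl1).

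The other targets are regulators of the cell cycle. Rbl1, a pocket protein of the retinoblastoma family, stood at 24.6, 25.5 and 27 CPM in T6B_MUT and 40.2, 42.4 and 39.4 CPM in Trim71KO_empty (log2 fold change 0.66, SE 0.07, edgeR adjusted p 2.73e-06). Rbl2, its relative, stood at 11.8, 12 and 12 CPM and 18.9, 16.5 and 15.8 CPM (log2 fold change 0.52, SE 0.09, edgeR adjusted p 0.000428), but was lower than in Ago2KO_empty (−0.26, edgeR adjusted p 0.0431). Cdkn1a, the cyclin-dependent kinase inhibitor p21, stood at 6.01, 6.5 and 6.11 CPM and 10.6, 6.39 and 9.21 CPM, so that replicate 2 of Trim71KO_empty lay within the control range. Its call (log2 fold change 0.50, edgeR adjusted p 0.0269) was lost when either of 2 edited libraries (replicates 1 and 3) or either of 2 control libraries (replicates 1 and 3) was left out. E2f7, a repressing E2F factor, did not pass the test (−0.13, edgeR adjusted p 0.52).

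Among genes of naive pluripotency more were called higher than lower, and among those of the formative state none was called higher. Of 23 naive genes tested, 14 were called higher and 2 lower, with a median log2 fold change of 0.34. Of the 13 transcription factors, 10 were higher and 1 was lower, the growth regulator Mycn (−0.40). Nanog, a homeobox factor of self-renewal, stood at 353, 349 and 353 CPM in T6B_MUT and 543, 539 and 547 CPM in Trim71KO_empty (log2 fold change 0.62, SE 0.06, edgeR adjusted p 4.72e-07). Zfp42, a zinc finger gene long used as a marker of undifferentiated cells, stood at 679.7, 639.8 and 706 CPM and 1069, 1086 and 1060 CPM (log2 fold change 0.67, SE 0.07, edgeR adjusted p 7.53e-07). In neither gene did the groups overlap, and both were higher than in Ago2KO_empty too (0.41 and 0.61). The nuclear receptor Nr5a2 (0.73) rose from 111, 107 and 107 CPM to 179, 186 and 174 CPM (edgeR adjusted p 4.18e-08). Smaller increases were called for the reprogramming factor Klf4 (0.53), the nuclear receptor Esrrb (0.30) and the LIF effector Stat3 (0.34). Among the 10 other naive markers, 4 were higher and 1 lower, or 2 lower without Trim71KO_empty replicate 3. Jam2, a junction protein, stood at 0.78 against T6B_MUT and −0.00 against Ago2KO_empty, and the RNA-binding protein gene Dppa5a was the called decrease (−0.63, edgeR adjusted p 6.48e-05). Against Ago2KO_empty the naive list had 10 members higher and 6 lower (median 0.12). Its 10 other markers had 2 higher and 4 lower there (median −0.15). In Experiment 1 the naive list had 16 higher and 3 lower (median 0.39).

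Of 13 core and general pluripotency genes, 7 were called lower and 3 higher (median −0.23), with 5 to 7 lower when any 1 library was left out. Leaving out Trim71KO_empty replicate 2 or T6B_MUT replicate 1 or 2 left 1 of the 3 called higher. Pou5f1, which encodes OCT4, stood at 989, 986 and 927 CPM in T6B_MUT and 928, 916 and 1005 CPM in Trim71KO_empty, with overlapping groups (log2 fold change −0.03, SE 0.08, edgeR adjusted p 0.843). Sox2, its partner, was slightly higher (0.24, edgeR adjusted p 0.0167) and lost this call when Trim71KO_empty replicate 2 or 3 or T6B_MUT replicate 1 or 2 was left out. Lin28a, the RNA-binding protein that blocks let-7 maturation, fell from 333, 329.8 and 330.1 CPM to 153, 199 and 192 CPM (log2 fold change −0.87, SE 0.08, edgeR adjusted p 3.47e-07). Its 3 edited libraries all lay below its control libraries, by unequal amounts. Decreases were also called for Utf1 (−0.79), the paired chromatin factors Dppa2 (−0.58) and Dppa4 (−0.41), and the zinc finger factor Sall4 (−0.26). The forkhead gene Foxd3 was higher (0.55).

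Of 21 formative and primed genes, 14 were called lower and the other 7 were not called, with a median of −0.59, and leaving out any 1 of the 6 libraries gave 12 to 14 lower. Dnmt3a, a de novo DNA methyltransferase induced on leaving the naive state (chromosome 12, 3806007 to 3914443), stood at 111, 108 and 103 CPM in T6B_MUT and 46.6, 48 and 52.2 CPM in Trim71KO_empty (log2 fold change −1.13, SE 0.09, edgeR adjusted p 3.08e-08). Every edited library was under the lowest control library by a wide margin. Foxp1, a forkhead factor, fell from 23.8, 22.2 and 25.2 CPM to 12.8, 15.2 and 15.1 CPM (log2 fold change −0.72, SE 0.10, edgeR adjusted p 1.57e-05). Zic2, a zinc finger factor of the primed state, fell from 3.22, 2.9 and 3.4 CPM to 1.41, 1.37 and 1.93 CPM (log2 fold change −1.02, SE 0.15, edgeR adjusted p 6.18e-05). The low-level Wnt inhibitor gene Dkk1 went from 0.962, 0.791 and 0.849 CPM to 0.232, 0.0292 and 0.14 CPM (log2 fold change −2.64, SE 0.38, edgeR adjusted p 4.08e-05). The epithelial factor Grhl2 was −0.69 against T6B_MUT and 0.28 against Ago2KO_empty, where it did not pass the test (edgeR adjusted p 0.0636). Against Ago2KO_empty the list had 2 members higher and 12 lower (median −0.38), and in Experiment 1 it had 1 higher and 13 lower (median −0.38).

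**Figure D2:**
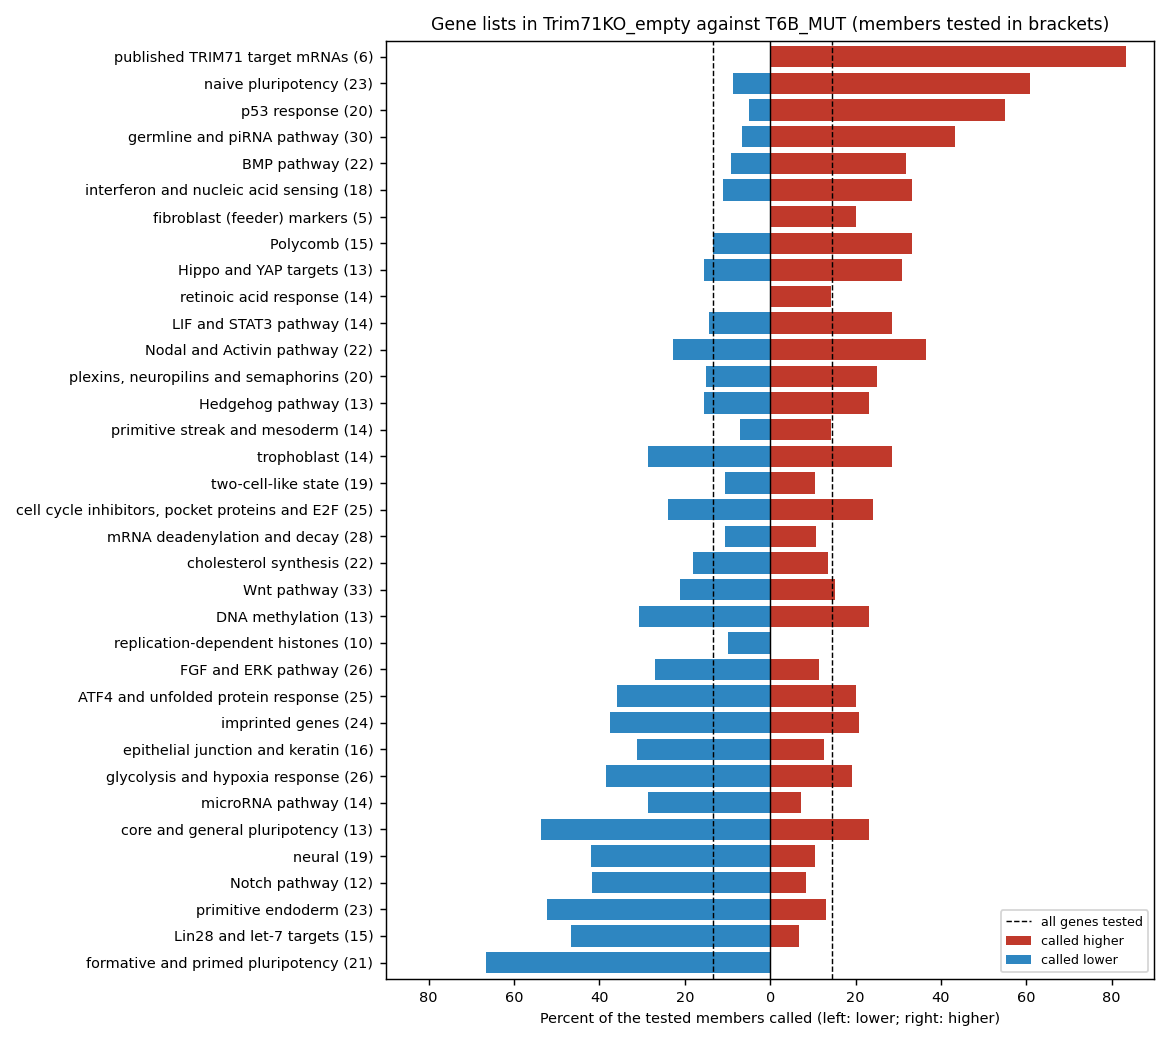
Share of the tested members of 35 gene lists that were called higher (right) or lower (left) in Trim71KO_empty against T6B_MUT, in percent, with dashed lines at the shares over all genes tested (14.4% and 13.4%). The published TRIM71 targets (83.3% higher), naive genes (60.9%), the p53 response (55.0%) and the germline list (43.3%) lie at the top, and formative genes (66.7% lower) at the bottom.

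Nodal pathway genes moved in both directions. Nodal and Activin bind ACVR receptors with a coreceptor, activate SMAD2 and SMAD3, and induce their own antagonists. Of 22 genes tested, 8 were higher and 5 lower (median 0.03). Lefty1 (chromosome 1, 180935022 to 180938400, plus strand), which encodes a secreted Nodal antagonist, stood at 12.6, 12.9 and 12.9 CPM in T6B_MUT and 2.06, 2.04 and 3.57 CPM in Trim71KO_empty. Its highest edited library was well under its lowest control library (log2 fold change −2.32, SE 0.18, edgeR adjusted p 2.28e-07). Lefty2, its neighbour (chromosome 1, 180893108 to 180899103, plus strand), stood at 28.3, 25.4 and 30.2 CPM in T6B_MUT and 4.06, 6.13 and 8.96 CPM in Trim71KO_empty. These groups did not overlap either (log2 fold change −2.14, SE 0.21, edgeR adjusted p 4.93e-05). The genes are close copies: 17.9% of the 50-base words of the longest Lefty1 transcript also occur in Lefty2, so reads could be split between them and each value is uncertain in that respect. A smaller decrease was called for the SMAD corepressor Skil (−0.36).

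Other Nodal targets and the ligands went elsewhere. The inhibitory Smad7 rose from 65.3, 57.9 and 62.1 CPM to 97.7, 93.3 and 91.8 CPM (log2 fold change 0.61, SE 0.07, edgeR adjusted p 4.64e-06). Pmepa1, a feedback inhibitor of SMAD signalling, also rose (0.51, edgeR adjusted p 0.000114). Nodal itself, at 42.8, 44 and 43.4 CPM in T6B_MUT and 47.8, 40.7 and 44.9 CPM in Trim71KO_empty, did not pass the test and its groups overlapped (log2 fold change 0.04). Inhbb, which encodes an Activin subunit, stood at 156, 155 and 149 CPM and 269.7, 279.6 and 288 CPM (log2 fold change 0.86, SE 0.06, edgeR adjusted p 1.49e-08), and no edited library was near a control library. In the untransfected pair these genes stood differently: Lefty1 at −0.15 (edgeR adjusted p 0.549), Lefty2 at 0.98 (0.000145) and Nodal at −0.97 (4.41e-08). The difference between experiments was called for all 3, at −2.17, −3.12 and 1.01 (edgeR adjusted p 4.00e-05, 1.98e-06 and 1.13e-07). Within Experiment 2 the mean of Lefty1 was 23.1 CPM in T6B_WT and 7.12 CPM in Ago2KO_empty, and the order of the 4 group means was the same for Lefty2.

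BMP ligands bind their own receptors and induce the ID proteins, which block differentiation factors. Of 22 BMP pathway genes, 7 were higher and 2 lower (median 0.06). When T6B_MUT replicate 1 or Trim71KO_empty replicate 2 was left out, 1 was lower. Bmp4, the ligand, rose from 30.3, 27.9 and 28.3 CPM to 44, 43.3 and 43.4 CPM (log2 fold change 0.59, SE 0.07, edgeR adjusted p 9.37e-06), and Bmp7 fell (−0.99, edgeR adjusted p 0.000213). Id3 stood at 15.6, 16.1 and 17.1 CPM in T6B_MUT and 31.6, 24.9 and 25.5 CPM in Trim71KO_empty, without overlap (log2 fold change 0.75, SE 0.09, edgeR adjusted p 5.80e-06). Id2 also rose here (0.72) while it was lower in the untransfected pair (−0.33), a difference that was called (1.05, edgeR adjusted p 3.58e-05).

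FGF4 signals through FGF receptors to the kinase ERK, which induces immediate early genes and its own phosphatases. Of 26 genes, 3 were higher and 7 lower (median −0.23), and only 1 was higher when Trim71KO_empty replicate 1 or 2 or T6B_MUT replicate 1 or 3 was left out. The shares in the main fit, 11.5% higher and 26.9% lower, stood against 14.4% and 13.4% over all genes tested. The ligand Fgf4 rose from 172, 161 and 178 CPM to 223, 235 and 231 CPM (log2 fold change 0.43, SE 0.06, edgeR adjusted p 6.98e-05). The immediate early gene Egr1 stood at 3.12, 3.93 and 3.6 CPM in T6B_MUT and 0.72, 1.05 and 0.558 CPM in Trim71KO_empty, without overlap (log2 fold change −2.19, SE 0.40, edgeR adjusted p 0.00254). The fit behind this SE includes Ago2KO_empty, where Egr1 stood at 5.4, 11.3 and 4.42 CPM. The target factor Etv4 (−0.47), the growth regulator Myc (−0.49) and the phosphatase Dusp4 (−0.61) were lower by smaller amounts. Of the 8 feedback inhibitors, Dusp4 was the 1 called. Etv4 was higher, not lower, against Ago2KO_empty (0.31, edgeR adjusted p 0.00502).

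Wnt proteins bind Frizzled receptors and stabilise β-catenin, whose targets include the feedback gene Axin2. Of 33 genes, 5 were higher and 7 lower (median −0.06), and 9 were higher when the 2 groups were fitted alone. These shares, 15.2% and 21.2%, stood against 14.4% and 13.4% over all genes tested. Wnt6, a ligand, rose from 2.96, 3.4 and 2.94 CPM to 9.83, 7.3 and 8.21 CPM (log2 fold change 1.45, SE 0.13, edgeR adjusted p 1.80e-07). The receptor gene Fzd7 fell from 142, 137 and 148 CPM to 86.8, 87.8 and 85.5 CPM (log2 fold change −0.71, SE 0.07, edgeR adjusted p 4.09e-07). Axin2 was lower (−0.67) and the secreted inhibitor Sfrp1 higher (0.42). Of 14 genes of the LIF and STAT3 pathway, 4 were higher (28.6%) and 2 lower (14.3%, near the share over all genes). When any 1 library except Trim71KO_empty replicate 2 was left out, 2 were higher. The decreases were those of the receptor chain Il6st (−0.30) and of the kinase Pim1, a STAT3 target, which fell from 55.1, 53 and 54.8 CPM to 21.8, 28 and 29.2 CPM (log2 fold change −1.04, SE 0.09, edgeR adjusted p 6.72e-08).

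Among the remaining signalling lists, Notch had 5 lower of 12, among them the ligand gene Jag1 (−0.59), and 1 higher, the target Hes1 (0.57). With DESeq2, a replicate block or the 2 groups fitted alone, 2 were higher. The untransfected pair had 4 of the 12 Notch genes higher and 3 lower. Of 13 Hedgehog genes, 3 were higher, among them the target factor Gli1, from 28.6, 32.6 and 27 CPM to 55.2, 49.6 and 51.2 CPM (log2 fold change 0.82, SE 0.09, edgeR adjusted p 2.40e-06), and the antagonist gene Hhip (1.37). Hhip stood at −0.22 against Ago2KO_empty and did not pass the test there (edgeR adjusted p 0.223). The 2 Hedgehog genes called lower, 15.4% against 13.4% over all genes tested, were 0 or 1 when any single library was left out. When the 2 groups were fitted alone, 5 were higher. The retinoic acid list had 2 of 14 higher, near the share over all genes, and 1 higher without T6B_MUT replicate 3 or Trim71KO_empty replicate 1 or 2.

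Primitive endoderm, the extraembryonic lineage that arises beside the epiblast, is marked by GATA6, GATA4, SOX17 and the receptor PDGFRA. Of its 23 genes, 12 were lower and 3 higher (median −0.37), with 11 to 13 lower when any 1 library was left out. Of the 8 transcription factors in the list, 4 were lower and 2 higher. The genes named here are all decreases, and the 3 increases are not among them. Gata6 stood at 4.44, 3.48 and 4 CPM in T6B_MUT and 1, 0.934 and 0.949 CPM in Trim71KO_empty (log2 fold change −2.04, SE 0.18, edgeR adjusted p 9.81e-08). Pdgfra stood at 9.15, 8.68 and 8.52 CPM and 2.83, 3.77 and 3.15 CPM (log2 fold change −1.44, SE 0.14, edgeR adjusted p 5.26e-07), and neither gene's groups overlapped. Cubn, an uptake receptor of visceral endoderm, went from 5.77, 5.8 and 6.03 CPM to 0.412, 0.672 and 0.307 CPM (log2 fold change −3.67, SE 0.28, edgeR adjusted p 1.89e-07). Lamb1, a basement membrane laminin, fell from 103, 104 and 98.5 CPM to 52.2, 52.5 and 52.4 CPM (log2 fold change −0.96, SE 0.07, edgeR adjusted p 1.06e-08). Decreases were also called for the proteoglycan Srgn (−2.79), the forkhead gene Foxq1 (−2.51), Sox17 (−1.45) and Gata4 (−1.17), of which Sox17 and Gata4 were singled out after their values were seen. In bulk RNA, fewer cells of this type and less RNA per cell cannot be told apart.

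The decrease was larger in untransfected cells. There 18 of the 23 genes were lower and 5 were not called (median −1.54). The difference between experiments was called for 12 of the list, in all 12 with the less negative value in the transfected pair. For Gata6 it was 2.23 (edgeR adjusted p 6.50e-06), for Pdgfra 1.81 (2.07e-06) and for Sox17 2.56 (4.34e-06), while Cubn (0.08) and Lamb1 (−0.03) did not pass this test. Gata6 averaged 3.97 CPM in T6B_MUT against 6.64 CPM in W, and 0.962 CPM in Trim71KO_empty against 0.344 CPM in Trim71KO. The 8 defining markers of this lineage together summed to 31.9 to 32.3 CPM in T6B_MUT and 11.1 to 12.8 CPM in Trim71KO_empty, and 4 of the 8 averaged under 1 CPM in the latter.

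Other lineages were low and mixed. Of 14 streak and mesoderm genes tested, 2 were higher and 1 lower, and the lower one, Cdx2, was lost in 4 of the 6 fits that left out 1 library and with DESeq2. The shares of 14.3% higher and 7.14% lower stood against 14.4% and 13.4% over all genes tested. The mesoderm factor T stood at 0.196, 0.216 and 0.294 CPM in T6B_MUT and 0.18, 0.204 and 0.112 CPM in Trim71KO_empty, and did not pass the test (−0.52, edgeR adjusted p 0.389). Eomes, a T-box factor of mesoderm and trophoblast, was higher (log2 fold change 0.68, edgeR adjusted p 0.00145). The vascular receptor Kdr was 0.76 here, −0.99 in untransfected cells and −1.01 against Ago2KO_empty, and each of these values passed the test.

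Trophoblast genes had 4 higher and 4 lower of 14, and these counts ran from 2 to 4 and from 1 to 3 when 1 library was left out. The count of lower genes fell to 2 without T6B_MUT replicate 3 and with DESeq2, and to 1 without T6B_MUT replicate 2. That of higher genes fell to 2 without T6B_MUT replicate 1 or 2 or Trim71KO_empty replicate 1 or 2. Tfap2c, a factor shared with germ cells, fell from 16.7, 16 and 16.7 CPM to 9.95, 10.2 and 10.9 CPM (log2 fold change −0.67, SE 0.07, edgeR adjusted p 1.97e-06), and the keratin Krt19 rose (log2 fold change 1.00, edgeR adjusted p 0.000293).

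Neural genes were lower more often than higher, with 8 lower and 2 higher of 19 (median −0.07). Without T6B_MUT replicate 1, and likewise without Trim71KO_empty replicate 3, 5 were lower. The untransfected pair went the other way, with 7 higher and 4 lower of 15 (median 0.21). Against Ago2KO_empty, 2 were higher and 8 lower. Sox1, the earliest neural marker, stood at 11.8, 11 and 12.4 CPM in T6B_MUT and 7.41, 7.5 and 6.45 CPM in Trim71KO_empty, without overlap (log2 fold change −0.72, SE 0.10, edgeR adjusted p 2.72e-05). It was higher in the untransfected knockout (0.62), and the difference was called (−1.34, edgeR adjusted p 1.13e-06). Sox4 (−0.58), the growth cone gene Gap43 (−1.19) and the low-level eye and forebrain factor Pax6 (−1.74) were lower as well. Ncam1, a neural adhesion molecule, rose from 16.9, 15.8 and 15.5 CPM to 31.2, 32.5 and 30.8 CPM (log2 fold change 0.97, SE 0.08, edgeR adjusted p 5.16e-08). Of the fibroblast markers that would show feeder cells, 5 were tested and Thy1, which stem cells also express, was called (1.21). The 3 defining markers that could be measured, Thy1, Col1a1 and Col1a2, summed to 4.04 to 4.68 CPM in T6B_MUT and 8.79 to 9.38 CPM in Trim71KO_empty, most of it Thy1, and the other 2 averaged under 1 CPM. Their part in these results was not tested.

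Cells of stem cell cultures pass briefly through a state that resembles the embryo after its first cleavage and expresses Zscan4 genes. Of 19 such genes tested, 2 were higher and 2 lower, near the share over all genes, with a median of 0.02. Leaving out T6B_MUT replicate 2 or 3 lost all 4 calls, among them the decreases of Zscan4a and Zscan4b. Zscan4a stood at 4.02, 4.92 and 4.21 CPM in T6B_MUT and 3.6, 3.21 and 3.71 CPM in Trim71KO_empty (log2 fold change −0.31, edgeR adjusted p 0.04). The members are close copies and their single values are uncertain. The untransfected pair differed from this, with 12 of 15 lower and a median of −3.49, and the difference between experiments was called for all 15 (4.25 for Zscan4a). Zscan4a averaged 21.7 CPM in T6B_WT and 16.2 CPM in Ago2KO_empty, so T6B_MUT and Trim71KO_empty were both the low groups of Experiment 2. Among the 8 largest differences between experiments at that level of expression were Zscan4a, Zscan4-ps1 (3.04), Eif1ad7 (3.14), Eif1ad8 (2.95) and Eif1ad3 (2.09). Efr3b (2.00), a membrane scaffold gene, and both Lefty genes made up the rest. Against T6B_MUT itself, Eif1ad7, Eif1ad8 and Eif1ad3 were called higher, at 0.74, 0.93 and 0.76 (edgeR adjusted p 0.00115, 1.78e-05 and 0.000728).

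**Figure D3:**
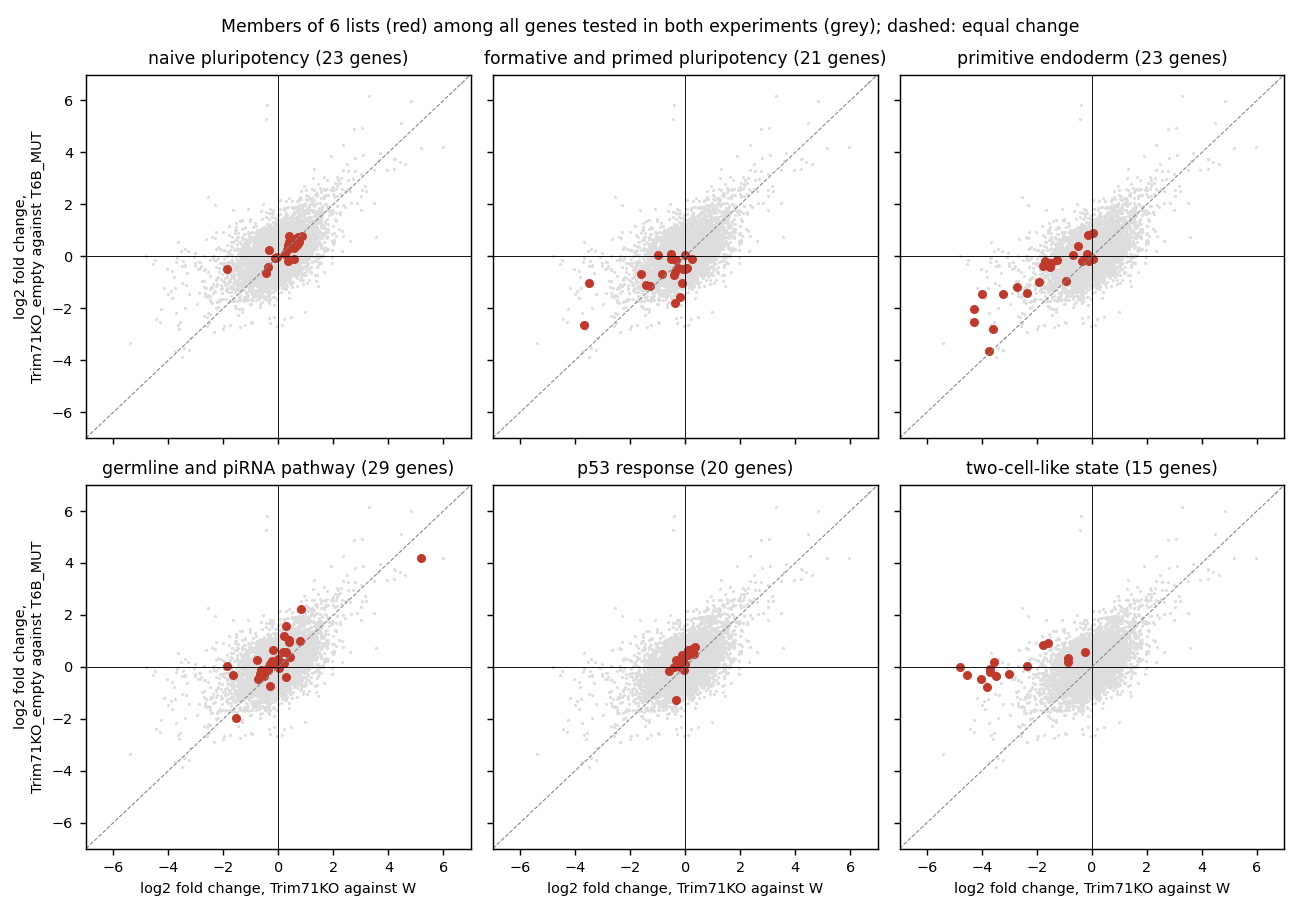
Log2 fold change in Trim71KO against W (x axis) and in Trim71KO_empty against T6B_MUT (y axis) for the 20588 genes tested in both experiments (grey; points beyond 7 not drawn) and for the members of 6 lists (red), with equal change dashed. Most primitive endoderm members lie below 0 on both axes and many of them above the dashed line, most members of the 2-cell-like list (two-cell-like state in the panel) lie far to the left and near 0 on the y axis, and most p53 response members lie above 0 on the y axis and near 0 on the x axis.

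Of 30 germline genes tested, 13 were called higher, 2 lower and 15 neither way (median 0.12). Germ cells protect their genome from transposons with piRNAs, and prepare recombination with proteins of the synaptonemal complex. In somatic and pluripotent cells many such genes carry promoters held silent by DNA methylation or by the noncanonical Polycomb complex PRC1.6, whose subunits recognise E-box and E2F motifs. The count of higher genes was 10 to 12 when any 1 library was left out, and that of lower genes was 4 when the 2 groups were fitted alone. Of the 15 meiosis and germ cell markers, 8 were higher and 7 not called, and the count was 8 in each of those 6 fits. Against Ago2KO_empty the list had 11 higher and 7 lower, and in untransfected cells 8 higher and 10 lower.

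After Dazl, the largest increase among markers was that of Taf7l, a germ cell subunit of the TFIID complex on chromosome X. It stood at 6.97, 7.65 and 8.78 CPM in T6B_MUT and 28.3, 23.7 and 18.4 CPM in Trim71KO_empty, where every library lay well above the highest control library (log2 fold change 1.59, SE 0.14, edgeR adjusted p 4.60e-07). Sycp2, a protein of the synaptonemal axis, rose from 5.34, 5.32 and 4.66 CPM to 13, 11.9 and 10 CPM (log2 fold change 1.19, SE 0.12, edgeR adjusted p 5.99e-07). Stk31, a germ cell kinase-like protein, rose from 10.8, 9.57 and 11 CPM to 21.5, 23.2 and 19.5 CPM (log2 fold change 1.03, SE 0.11, edgeR adjusted p 8.48e-07). Rpl10l, a ribosomal protein gene used in spermatogenesis, rose from 36.4, 34.7 and 35.9 CPM to 70.3, 67.6 and 71.9 CPM (log2 fold change 0.97, SE 0.07, edgeR adjusted p 2.01e-08). In none of these did the groups overlap. Dazl, Taf7l, Sycp2, Stk31 and Rpl10l rose more here than in untransfected cells by the test of the difference (1.39, 1.31, 1.00, 0.63 and 0.60). Dazl averaged 39.3 CPM in Ago2KO_empty and 19.6 CPM in T6B_WT, and Trim71KO_empty was called higher than Ago2KO_empty by 0.81 (edgeR adjusted p 5.55e-06).

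Of 15 piRNA pathway genes, 5 were higher and 2 lower (median −0.11). The count of higher genes ran from 2 to 4 when 1 library was left out, at 2 without T6B_MUT replicate 1 and at 3 without T6B_MUT replicate 2 or 3 or Trim71KO_empty replicate 1 or 2. Asz1, a germ granule protein, went from 0.0196, 0.024 and 0.052 CPM to 0.514, 0.876 and 0.586 CPM (log2 fold change 4.19, SE 0.51, edgeR adjusted p 6.29e-06). Asz1 averaged 0.0169 CPM in T6B_WT and 0.0606 CPM in Ago2KO_empty. It thus passed the filter on low counts only through Trim71KO_empty, and it is among the 5 genes counted higher here. Piwil1, a PIWI protein, stood at 0.864, 0.935 and 0.728 CPM in T6B_MUT and 1.77, 1.96 and 1.26 CPM in Trim71KO_empty (log2 fold change 0.99, edgeR adjusted p 0.00856). The helicase gene Tdrd9 stood at 0.726, 1.1 and 0.866 CPM and 1.41, 1.52 and 1.31 CPM (log2 fold change 0.66, edgeR adjusted p 0.0287), a call that was lost when Trim71KO_empty replicate 1 or 2 or T6B_MUT replicate 1 or 3 was left out. Asz1, Piwil1 and Tdrd9 were singled out after their values were seen. Tdrd12, among the largest decreases of all genes, belongs to this pathway too.

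Promoters of the germline list were searched for the E-box CACGTG, the core of the motif that PRC1.6 recognises through MGA and MAX, in the 250 bases before the RefSeq start (GRCm38.p6, either strand, since the motif is its own reverse complement). The search was added after the values were seen. It matched 6 of the 11 genes called higher that had a RefSeq promoter (of 13), namely Taf7l, Stk31, Tdrd9, Piwil1, Stag3 and Mael. It also matched 6 of the 16 other tested genes with a promoter, and 6.02% of all 32851 promoters. The share was thus above that of all promoters both in the genes that rose and in those that were not called higher, of the same list. The E2F-type motif GCGGGAA (both strands) was found in 2 of the 11, Rpl10l and Smc1b, in 4 of the 16, and in 3.82% of all promoters. A match is a description of the letters and not a bound site. The promoters of 4 genes that rose and hold the E-box follow, with CACGTG in capitals, and then that of Dazl, which also rose and holds none in this window. They are printed 5′ to 3′ on the gene's strand: Taf7l at chrX:134476491-134476740 (minus strand), Stk31 at chr6:49395289-49395538 (plus), Tdrd9 at chr12:111971309-111971558 (plus), Piwil1 at chr5:128735996-128736245 (plus) and Dazl at chr17:50293621-50293870 (minus).
Taf7l: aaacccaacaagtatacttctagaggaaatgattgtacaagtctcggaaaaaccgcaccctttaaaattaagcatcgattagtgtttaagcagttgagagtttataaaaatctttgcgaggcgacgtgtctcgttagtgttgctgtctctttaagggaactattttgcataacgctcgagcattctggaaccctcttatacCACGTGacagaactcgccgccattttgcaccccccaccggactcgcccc
Stk31: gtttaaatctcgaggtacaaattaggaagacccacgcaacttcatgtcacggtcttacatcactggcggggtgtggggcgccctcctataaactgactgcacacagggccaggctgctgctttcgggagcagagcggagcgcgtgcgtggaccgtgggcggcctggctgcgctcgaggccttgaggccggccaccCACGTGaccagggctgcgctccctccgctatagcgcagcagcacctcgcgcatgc
Tdrd9: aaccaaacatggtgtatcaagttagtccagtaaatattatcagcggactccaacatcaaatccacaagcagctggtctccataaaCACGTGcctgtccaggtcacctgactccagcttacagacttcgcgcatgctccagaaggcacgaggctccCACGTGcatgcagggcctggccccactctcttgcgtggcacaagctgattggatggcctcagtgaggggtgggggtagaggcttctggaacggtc
Piwil1: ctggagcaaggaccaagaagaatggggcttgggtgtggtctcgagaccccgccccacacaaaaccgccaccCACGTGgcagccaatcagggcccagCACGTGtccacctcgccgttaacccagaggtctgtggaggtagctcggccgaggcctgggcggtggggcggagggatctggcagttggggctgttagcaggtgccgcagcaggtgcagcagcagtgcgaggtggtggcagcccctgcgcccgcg
Dazl: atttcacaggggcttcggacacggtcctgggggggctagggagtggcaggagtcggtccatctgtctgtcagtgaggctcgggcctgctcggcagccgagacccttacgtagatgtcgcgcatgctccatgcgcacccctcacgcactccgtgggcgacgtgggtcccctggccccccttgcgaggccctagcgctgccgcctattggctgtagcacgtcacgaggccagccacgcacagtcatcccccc
The E-box begins 49 bases before the start in Taf7l and 55 bases before it in Stk31. Tdrd9 holds 2 of them, at 165 and 95 bases, and Piwil1 holds 2, at 179 and 154 bases.

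Chromosome X held a larger share of strong increases than any autosome, a pattern noticed in the values. At least a 2-fold increase was called for 89 of its 883 genes (10.1%), against 1.44% to 4.34% on the autosomes. Its median log2 fold change was −0.00, and 125 of its genes were called lower. Families expressed in germ cells were among the genes that rose. Called higher (edgeR) were 8 of 8 Xlr genes tested, 6 of 8 Mage genes and 7 of 7 Fthl17 genes. These numbers cover only members that passed the filter on low counts, which a gene can pass through Trim71KO_empty alone. Members low in every group were not tested. The families were picked after their values were seen. The Mage genes counted are those with symbols of the Magea, Mageb or Magek type, and other Mage genes were left out. Over all 883 genes of the chromosome, 19.1% were called higher. The families had median log2 fold changes of 2.39, 2.33 and 2.37 in that order. Their medians were 1.26, 1.75 and 1.58 in untransfected cells. Of 5 Rhox genes, 3 were higher, with a median of 1.57. In untransfected cells the Rhox median was −0.03, with 2 higher and 1 lower. The highest mean level in Trim71KO_empty was 3.72 CPM among Xlr genes, 1.36 CPM among Fthl17 genes, 26.9 CPM among the Mage genes counted and 17.4 CPM among Rhox genes. Xlr3b, for instance, stood at 1.24, 1.29 and 1.16 CPM in T6B_MUT and 3.22, 3.01 and 3.4 CPM in Trim71KO_empty (log2 fold change 1.39, edgeR adjusted p 2.57e-06). These families hold near-identical copies among which reads could be split, so single members are uncertain. Usp26, a deubiquitinase gene of the testis also picked after its value was seen, rose from 0.569, 0.432 and 0.398 CPM to 7.28, 7.15 and 6.39 CPM (log2 fold change 3.89, SE 0.18, edgeR adjusted p 2.58e-11). Chromosome 8 had the largest median, at 0.09 (0.20 in untransfected cells), with 245 genes higher and 97 lower.

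**Figure D4:**
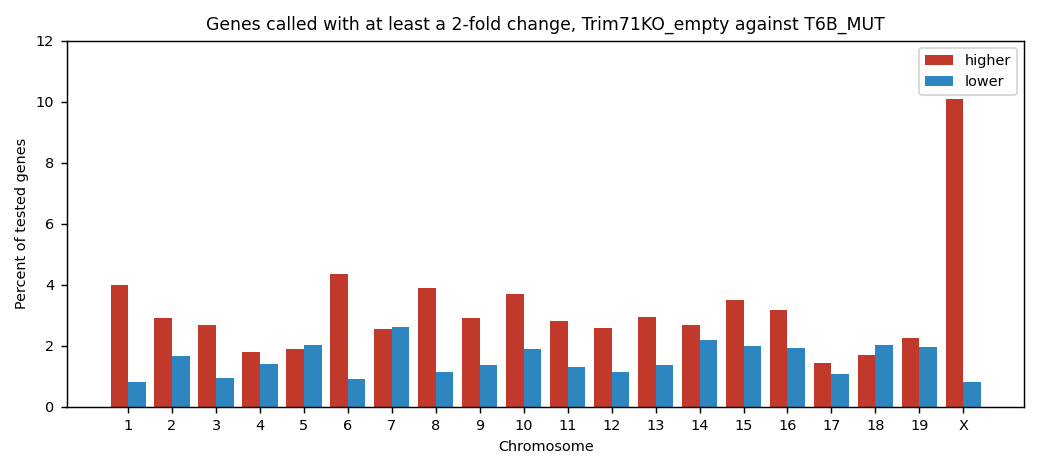
Share of tested genes per chromosome (y axis, percent) that were called with at least a 2-fold change in Trim71KO_empty against T6B_MUT, higher in red and lower in blue. Chromosome X reached 10.1% higher, and no autosome passed 4.34%.

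E2F and cyclin genes were lower more often than higher against T6B_MUT. Of 15, 5 were lower and 1 higher, and 3 were lower without T6B_MUT replicate 3 or Trim71KO_empty replicate 1. Without the latter, 2 were higher. The untransfected pair went the other way, with 6 of the 15 higher and 2 lower. Against Ago2KO_empty, 5 were higher and 4 lower. Ccne1, which encodes the G1/S cyclin E1, stood at 128, 124 and 125 CPM in T6B_MUT and 35.7, 49 and 53.5 CPM in Trim71KO_empty (log2 fold change −1.45, SE 0.13, edgeR adjusted p 4.90e-06). Ccnd1, a G1 cyclin, stood at 105, 107 and 106 CPM and 37.2, 55.2 and 59.8 CPM (log2 fold change −1.07, SE 0.15, edgeR adjusted p 0.000463). Neither gene's groups overlapped, and replicate 1 was the lowest edited library in both. Ccnd3 was lower as well (−0.49), and for these 3 cyclins the change was more negative than in untransfected cells by the test of the difference (−0.49, −0.84 and −0.54). Unlike the list count, Ccne1 (−0.96) and Ccnd1 (−0.23) were called lower in untransfected cells too. Ccnd3 did not pass the test there (0.05). Of 10 inhibitors and pocket proteins, 5 were higher and 1 lower, but 2 or 3 were higher without T6B_MUT replicate 1, 2 or 3 or Trim71KO_empty replicate 1. The decrease was that of the imprinted inhibitor Cdkn1c, from 10.7, 11 and 11 CPM to 4.24, 5.49 and 7.65 CPM (log2 fold change −0.91, SE 0.14, edgeR adjusted p 0.000125).

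Targets of p53, the stress-activated tumour suppressor, were more often called higher than lower against T6B_MUT. Of 20 genes, 11 were higher and 1 lower (median 0.34), with 9 to 12 higher when any 1 library was left out and 2 lower without Trim71KO_empty replicate 2. Ccng1, a cyclin-like p53 target, stood at 732, 679.9 and 770.2 CPM in T6B_MUT and 1269, 1155 and 973 CPM in Trim71KO_empty (log2 fold change 0.64, SE 0.10, edgeR adjusted p 8.02e-05). Trp53inp1, a p53-induced nuclear protein, rose from 524, 487 and 562 CPM to 915, 795 and 699 CPM (log2 fold change 0.62, SE 0.11, edgeR adjusted p 0.000458). Neither gene's groups overlapped. The death receptor Tnfrsf10b (0.64), the lesion-bypass polymerase Polk (0.47) and the receptor Eda2r (0.40) rose as well. Pmaip1, which encodes the death protein NOXA, went the other way, from 74.3, 68.2 and 80.3 CPM to 29.8, 31.9 and 29.8 CPM (log2 fold change −1.29, SE 0.09, edgeR adjusted p 1.06e-08).

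These counts differed with the control group. Against Ago2KO_empty, 3 of the 20 were higher and 5 lower (median −0.02), and Ccng1 was lower there (−0.38, edgeR adjusted p 0.00533). Ccng1 averaged 1108 CPM in T6B_WT and 1474 CPM in Ago2KO_empty, so T6B_MUT was the lowest of the 4 groups. In untransfected cells 1 of the 20 was higher and 5 were lower (median −0.02), and the difference between experiments was called as higher for 9 members and as lower for Pmaip1. Ccng1 averaged 269 CPM in W and 296 CPM in Trim71KO, below each group of Experiment 2.

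Glycolytic enzymes were more often called lower than higher. Of 15 glycolysis genes, 9 were lower and 2 higher (median −0.30), and 6 to 9 were lower when any 1 library was left out. Ldha, which makes lactate and was named after its value was seen, stood at 555, 547 and 529 CPM in T6B_MUT and 244, 348 and 376 CPM in Trim71KO_empty (log2 fold change −0.75, SE 0.15, edgeR adjusted p 0.00326). Aldoa, the aldolase, fell from 931, 926 and 879 CPM to 595, 614 and 694 CPM (log2 fold change −0.52, SE 0.08, edgeR adjusted p 6.54e-05). Tpi1, the triose phosphate isomerase, fell from 152, 154 and 149 CPM to 76.5, 91.8 and 109 CPM (log2 fold change −0.72, SE 0.12, edgeR adjusted p 0.000477). In all 3, the edited libraries lay below the controls, and replicate 1 lowest. Exceptions were the phosphofructokinase Pfkp (0.76) and the glucose transporter Slc2a3 (0.47), both higher. Against Ago2KO_empty, 3 of the 15 were lower and 2 higher. Of 11 hypoxia-induced genes, 3 were higher, among them Vegfa (0.60), and 1 lower, the pyruvate dehydrogenase kinase Pdk1 (−0.62). Without Trim71KO_empty replicate 3, 3 of these were lower.

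Amino acid and stress genes moved in both directions. ATF4 is a stress-induced factor that drives serine and one-carbon enzymes. Of 16 ATF4 target genes, 7 were lower and 3 higher, with Atf4 itself at −0.38 and the serine enzymes Psat1 (−0.42) and Phgdh (−0.53) lower. Ddit3, which encodes the stress factor CHOP, rose from 43.8, 42.9 and 45 CPM to 90.4, 69.6 and 66.6 CPM (log2 fold change 0.78, SE 0.11, edgeR adjusted p 8.98e-05), and Atf5 rose from 18.3, 17.1 and 18.1 CPM to 45.1, 31.2 and 32.1 CPM (log2 fold change 1.02, SE 0.14, edgeR adjusted p 0.000188). Among 9 endoplasmic reticulum chaperone genes, 2 were higher, including Herpud1 (0.55), and 2 were lower, counts that moved to between 1 and 3 and between 0 and 3 when T6B_MUT replicate 1 or 2 or any Trim71KO_empty replicate was left out. Of 22 cholesterol synthesis genes, 4 were lower, among them Idi1 (−0.53), and 3 higher, among them Hsd17b7 (0.38). Their shares, 18.2% lower and 13.6% higher, were near those over all genes tested (13.4% and 14.4%). Without Trim71KO_empty replicate 1, 2 were lower.

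Genes of the Lin28 and let-7 axis were lower more often than higher. Of 15, 7 were lower and 1 higher (median −0.23), and 7 were lower in each of the 6 fits that left out 1 library. The untransfected pair had 6 of them higher and 4 lower (median −0.02). Against Ago2KO_empty, 2 were higher and 6 lower. LIN28 proteins keep let-7 from maturing, and let-7 represses growth genes of the embryo. Igf2bp3, an RNA-binding protein of this set, fell from 111, 107 and 118 CPM to 69, 77.8 and 74.5 CPM (log2 fold change −0.60, SE 0.07, edgeR adjusted p 2.54e-06), while it rose in untransfected cells (0.56), and it was −0.03 against Ago2KO_empty. The chromatin protein gene Hmga1 was lower (−0.60). In untransfected cells 5 of 14 microRNA pathway genes were higher and 1 lower. In the transfected pair 4 were lower and 1 higher, or 4 higher when the 2 groups were fitted alone. Apart from Tnrc6b, the decreases were small, in the processing enzymes Drosha (−0.27) and Dicer1 (−0.24) and the exporter Xpo5 (−0.22), and none of these 3 was called without Trim71KO_empty replicate 1. Of 28 deadenylation and decay genes, 3 were higher and 3 lower, with the decapping genes Dcp2 (0.38) and Edc4 (0.35) higher and the deadenylase subunit Cnot9 (−0.34) lower. At 10.7% each way, this list lay below the shares over all genes tested (14.4% higher and 13.4% lower).

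Of 13 DNA methylation genes, Dnmt3a among them, 4 were lower and 3 higher. Tet2, an enzyme that oxidises methylcytosine, rose from 274, 295 and 278 CPM to 517, 488 and 467 CPM (log2 fold change 0.80, SE 0.15, edgeR adjusted p 0.00192). The maintenance factors Uhrf1 (−0.44) and Dnmt1 (−0.25) were lower, and Zfp57, which protects imprints, was higher (0.33). Of 24 imprinted genes, 9 were lower and 5 higher, with 2 to 4 higher when any 1 library was left out. The adaptor gene Grb10 fell from 761, 742 and 761 CPM to 407, 408 and 411 CPM (log2 fold change −0.88, SE 0.06, edgeR adjusted p 8.27e-09). Mest rose from 36.6, 33.6 and 36.6 CPM to 72.5, 77 and 68.9 CPM (log2 fold change 1.03, SE 0.07, edgeR adjusted p 4.05e-09), and in neither gene did the groups overlap. Igf2r, a scavenger of the growth factor IGF2, was higher (0.57) and Gnas lower (−0.46).

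Of 15 Polycomb genes, 5 were higher (33.3%) and 2 lower (13.3%), and 2 to 4 were higher when any 1 library was left out. Over all genes tested, 14.4% were higher and 13.4% lower, and lists below have their shares in brackets. The PRC2 subunit Suz12 was higher (0.38). Kdm2b, the PRC1 recruiter, fell from 97.8, 97.7 and 94.4 CPM to 63.3, 65.4 and 68.4 CPM (log2 fold change −0.56, SE 0.06, edgeR adjusted p 1.26e-06). Of 18 interferon and nucleic acid sensing genes tested, 6 were higher (33.3%) and 2 lower (11.1%). The lower count was 1 without T6B_MUT replicate 3 or Trim71KO_empty replicate 1. The induced genes Bst2 (−1.08) and Oasl1 (1.36) went opposite ways. Plexins and semaphorins had 5 higher (25.0%) and 3 lower (15.0%) of 20, the latter near the share over all genes tested. With the 2 groups fitted alone, 4 Polycomb genes were lower. Hippo genes had 4 higher (30.8%) and 2 lower (15.4%) of 13, with 1 or 2 higher without any T6B_MUT replicate or Trim71KO_empty replicate 1. Epithelial junction genes had 5 lower (31.2%) and 2 higher (12.5%) of 16. Of these, 3 were lower in the fit with a replicate block and without T6B_MUT replicate 1 or 3 or Trim71KO_empty replicate 2. Of 10 replication-dependent histone genes, 1 was lower, a count that ran from 0 to 4 when 1 library was left out and reached 4 without Trim71KO_empty replicate 3.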

How the data were processed

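RNA of mouse embryonic stem cells was sequenced after column extraction with DNase treatment and a stranded total RNA library kit, per the labels' protocols. The submitters' processing notes name bcl2fastq 2.17, STAR 2.7.3a and the GRCm38 (mm10) build, and the counting tool and its use of strand are not given in the sources used here. The deposited table of the authors holds raw read counts per gene for all 21 libraries, beside RPKM values and a gene length computed by the authors, which were not used for tests. No column of another series was found in it.

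Counts were analysed with edgeR 4.0.16 in R 4.3.3 (filterByExpr at a minimum count of 10, TMM, robust quasi-likelihood F test, Benjamini-Hochberg over all genes tested). The 12 libraries of Experiment 2 were fitted together, as were the 9 of Experiment 1, and the difference between experiments used all 21. Calls were made below an adjusted p of 0.05. CPM values are scaled by TMM. The code was tested on simulated data. Alternatives were DESeq2 1.42.0, its size factors, no filter, the 2 groups alone, a replicate block, a 2-fold minimum and leaving out each replicate.

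The genes compared, the lists and the tests were chosen with earlier results of these data known, and no list was tested as a set. The text names the 12 largest called increases and decreases at an average log2 CPM of 2 or above without overlap of the groups, up to 6 members of each list with the smallest p, a fixed set of pluripotency, lineage and target genes, and the 8 largest differences between experiments. Genes outside this rule are marked as chosen after their values were seen. Promoters are from RefSeq (GRCm38.p6).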

Additional observations from a re-analysis of the deposited data

Results flagged for a closer look

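For 83 of the 175 genes named in the text, the change in Trim71KO_empty against T6B_MUT differed from that in Trim71KO against W by the test of the difference itself (edgeR quasi-likelihood test over all 21 libraries, adjusted over 22258 genes, of which 10.1% were called). Values are the log2 fold change of the transfected pair minus that of the untransfected pair, so a positive value means a higher change in the transfected pair. The pairs differ in transfection, in the control's plasmid and in the experiment they belong to, and these cannot be told apart.

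Among Nodal and BMP pathway genes and other signalling genes, the difference was positive for Nodal (1.01), Pmepa1 (0.41), Id2 (1.05), Wnt6 (1.78), Dll1 (0.74), Gli1 (0.56), Ccn2 (0.85) and Nrp1 (0.85), and negative for Lefty1 (−2.17), Lefty2 (−3.12), Etv4 (−0.38), Fzd7 (−0.37), Sfrp1 (−1.13), Jag1 (−0.59), Fgf15 (−1.46) and Plxna3 (−0.65). Among pluripotency genes and TRIM71 targets, the difference was positive for Jam2 (0.39), Grhl2 (0.91) and Lncenc1 (0.37), and negative for Rbl1 (−0.39), Esrrb (−0.28), Zic2 (−0.90) and Igf2bp3 (−1.16). Among lineage genes, the difference was positive for Gata6 (2.23), Pdgfra (1.81), Foxq1 (1.79), Sox17 (2.56), Gata4 (1.55), Kdr (1.75), Krt19 (1.19), Epcam (0.72) and Thy1 (0.53), and negative for Sox1 (−1.34), Gap43 (−0.96) and Sox4 (−0.54). Among genes of the 2-cell-like state and their neighbours in size of difference, it was positive for Zscan4a (4.25), Zscan4b (3.57), Zscan4-ps1 (3.04), Eif1ad7 (3.14), Eif1ad8 (2.95), Eif1ad3 (2.09) and Efr3b (2.00).

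Among germline and X-linked genes, the difference was positive for Dazl (1.39), Taf7l (1.31), Sycp2 (1.00), Stk31 (0.63), Rpl10l (0.60), Tm9sf5 (1.05), Rhox5 (0.61), Ezhip (0.82), Ube2dnl1 (0.66) and Usp26 (0.81), and negative for Tdrd12 (−0.45). Among cell cycle and p53 response genes, the difference was positive for Ccng1 (0.50), Tnfrsf10b (0.52), Trp53inp1 (0.53), Polk (0.39) and Eda2r (0.39), and negative for Ccne1 (−0.49), Ccnd1 (−0.84), Ccnd3 (−0.54) and Pmaip1 (−0.95). Among metabolic, stress and imprinted genes, the difference was positive for Pfkp (0.36), Vegfa (0.52), Ddit3 (0.67) and Igf2r (0.39), and negative for Pdk1 (−0.73), Psat1 (−0.25), Hsd17b7 (−0.38), Uhrf1 (−0.50), Grb10 (−0.33), Gnas (−0.52) and Phlda2 (−0.56). Of the other genes, the difference was positive for Mgat4c (1.56) and Slc13a5 (0.99), and negative for Tnrc6b (−1.97), Cpe (−0.69), St8sia6 (−0.77), Ifitm1 (−0.82), Adam19 (−1.38), Pla2g1b (−0.57), Aldh1b1 (−1.09) and Drosha (−0.35).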

How the results depend on the processing

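With 3 libraries a group and 1 control plasmid, the comparison measures genotype and plasmid together, and genes of low level have wide errors. Counts of higher and lower genes at an adjusted p under 0.05 (3104 and 2871 with edgeR against T6B_MUT) were 3098 and 2851 with DESeq2's size factors, 3047 and 2957 without a filter on low counts, 2995 and 2718 with DESeq2, and 3815 and 3427 when the 2 groups were fitted alone. Asking for at least a 2-fold change as well left 682 and 326 against T6B_MUT, 430 and 841 against Ago2KO_empty, 494 and 614 for Trim71KO against W, and 399 and 136 for the difference between experiments, since that rule admits fewer genes by construction. Leaving out each replicate in turn gave 2150 to 2924 higher and 1938 to 2908 lower against T6B_MUT, 2738 to 3701 and 2765 to 3997 against Ago2KO_empty, and 2839 to 3678 and 2459 to 3612 for Trim71KO against W. For the difference between experiments it gave 805 to 1273 higher and 706 to 1155 lower, with 706 lower without T6B_MUT replicate 1 and 740 without Trim71KO_empty replicate 1. The cause was not tested. With a replicate block the counts against T6B_MUT were 3029 and 2772. The main fit did not treat shared replicate numbers as pairs. Same-numbered libraries of the 2 groups correlated at −0.037, −0.1 and −0.059 in their deviations from the group means over 12696 genes. Not every library correlated best with its own number. These values show no strong effect shared by number, but with 3 libraries a group they cannot establish how the samples were handled.

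Of the 175 genes named, 169 were called, and 158 of these were called under every alternative other than the 2-fold rule. The call was lost under at least 1 alternative for 11, namely Cdkn1a, Cdx2, Cldn3, Dicer1, Drosha, Mael, Sox2, Tdrd9, Xpo5, Zscan4a and Zscan4b. Of these, the replicate block lost Cdkn1a, Cldn3 and Zscan4a. A sign changed only for 2 genes that were not called: Ago2 ran from −0.13 to 0.06 (0.06 without T6B_MUT replicate 2) and Nodal from −0.02 to 0.09 (−0.02 without Trim71KO_empty replicate 1).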

Other observations

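Members of a few lists not yet described also moved in Trim71KO_empty. Among plexins, neuropilins and semaphorins, the coreceptor Nrp1 rose from 1.49, 1.39 and 1.33 CPM to 3.7, 3.15 and 3.32 CPM (log2 fold change 1.27, SE 0.14, edgeR adjusted p 1.88e-06), and the ligand Sema4b rose from 78.3, 76.8 and 77.5 CPM to 122, 94.1 and 104 CPM (log2 fold change 0.46, SE 0.08, edgeR adjusted p 0.000199). Their relatives Plxna3 (−0.63) and Nrp2 (−0.42) were lower. The receptors named here moved in both directions, and against Ago2KO_empty Nrp1 did not pass the test (0.27, edgeR adjusted p 0.127). Of the adhesion genes, the E-cadherin gene Cdh1 rose from 133, 137 and 134 CPM to 223, 201 and 189.9 CPM (log2 fold change 0.60, SE 0.13, edgeR adjusted p 0.00475), while the epithelial adhesion molecule Epcam was lower (−0.29). The tight junction gene Cldn3 had a low level, at 1.24, 0.839 and 1.25 CPM in T6B_MUT and 0.566, 0.234 and 0.809 CPM in Trim71KO_empty (log2 fold change −1.05, edgeR adjusted p 0.031), and its call was lost without T6B_MUT replicate 1 or 3 or Trim71KO_empty replicate 1 or 2.

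Among imprinted genes, the noncanonical Notch ligand Dlk1 went from 1.37, 1.39 and 1.28 CPM to 0.386, 0.35 and 0.419 CPM (log2 fold change −1.80, SE 0.26, edgeR adjusted p 3.46e-05), and Phlda2, a placental growth regulator, went from 13.7, 12.9 and 13.9 CPM to 6.17, 6.8 and 8.9 CPM (log2 fold change −0.89, SE 0.12, edgeR adjusted p 2.72e-05). In neither did the groups overlap, and Phlda2 was not lower than in Ago2KO_empty (0.19, edgeR adjusted p 0.29). The YAP target Ccn2 (−0.74) and the Notch ligand Dll1 (−0.87) were lower too. Tlr3, a sensor of double-stranded RNA, stood at 0.51, 0.336 and 0.589 CPM in T6B_MUT and 1.18, 0.934 and 1.14 CPM in Trim71KO_empty (log2 fold change 1.16, edgeR adjusted p 0.00155).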
